A study of Mus musculus with 4 samples.

Results

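The genes described here are 10 mouse genes of the cAMP-CREB axis, namely the salt-inducible kinases Sik1, Sik2 and Sik3, the CREB coactivators Crtc1, Crtc2 and Crtc3, the transcription factors Creb1 and Crem, the cAMP-induced nuclear receptor gene Nr4a1 and the glucagon receptor gene Gcgr. They were taken by symbol from 37315 gene rows of each count file, and all 10 were found and passed the filter on low counts. RNA sequencing was done on liver of C57BL/6 mice aged 23 weeks, with 2 libraries from wild type animals and 2 from animals carrying a synonymous mutation of Foxo1. A synonymous mutation changes the coding DNA but not the encoded amino acid, and Foxo1 encodes a forkhead factor restrained by insulin. The position of the mutation, its zygosity, and the sex, feeding state and time of collection of the mice are not stated in the labels used here. The labels do not say that libraries came from separate animals, so errors and p-values cover only the spread among these 4 libraries, part or all of which may be technical.

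Glucagon acts on hepatocytes through its receptor, which raises cAMP through the stimulatory G protein and adenylyl cyclase and so frees protein kinase A. Protein kinase A phosphorylates CREB and also the salt-inducible kinases, which otherwise phosphorylate the CRTC coactivators and hold them in the cytoplasm. Dephosphorylated CRTC enters the nucleus and drives CREB targets, among them gluconeogenic genes, Nr4a1 and Sik1 itself, which closes a negative feedback loop.

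Total counts ranged from 73551737 to 95908652 per library, and 3 counts corresponded to 0.0315 to 0.0415 normalised CPM (read counts scaled to the size of the library, with TMM factors). Liver identity was evident from albumin, at 64783 to 80697 CPM. Foxo1 itself was at 44.0 and 54.8 CPM in wild type against 33.6 and 53.4 CPM in mutant liver, so the groups overlapped. Each log2 fold change sets mutant against wild type, as edgeR fitted it, and ± gives the SD of the 2 libraries of a group (n = 2).

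Sik1 was about 2-fold higher in both mutant libraries, while Sik2, Sik3, the 3 CRTC coactivators, Creb1, Crem and Gcgr differed little between the groups. Nr4a1, at a far lower level, was also higher in both mutant libraries, with a wide interval. The 10 genes were chosen by pathway with the log2 fold changes and adjusted p-values of this same comparison known, that of Sik1 above all, so the member values are a description and no test of them is offered. In edgeR 1 of the 10 members, Sik1, passed the threshold used for all genes (Benjamini-Hochberg adjusted p below 0.05), beside 0.341% of the 14657 genes tested. DESeq2 and limma-voom also called Sik1 alone, beside 0.764% and 0.0478% of all genes tested. Not every edgeR fit with 1 library left out kept the call of Sik1, and such fits called far fewer of all genes. The log2 fold change of Sik1 in them was 1.04 to 1.20. In 4 of the 10 members (Sik1, Sik3, Nr4a1 and Gcgr) the 2 groups did not overlap, beside 34.1% of all genes tested. Over the 10 members 5 log2 fold changes were positive and 5 negative, with a median of −0.04 that ran from −0.11 to 0.07 with 1 library left out. Over all tested genes the median was −0.0013 and 49.7% were positive.

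**Figure D1:**
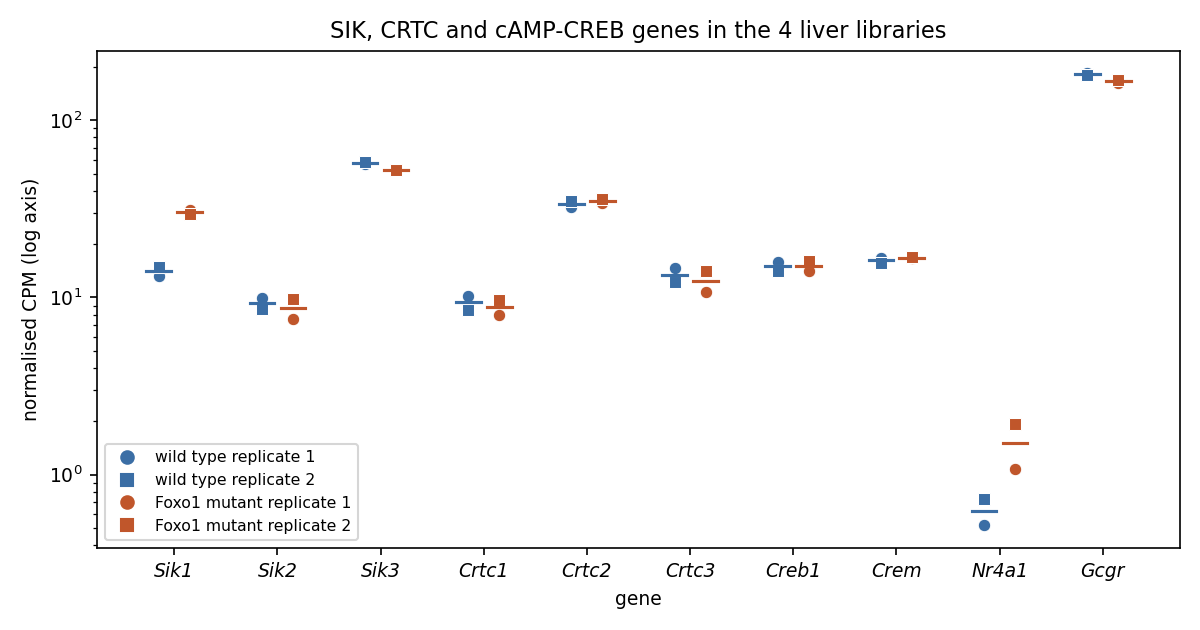
Normalised CPM (log axis) of the 10 genes in each of the 4 libraries, with circles and squares for replicates 1 and 2 and a short line for the group mean. Sik1 lies at 13.2 and 14.9 CPM in wild type and at 31.3 and 29.7 CPM in mutant liver, and for each of the others except Nr4a1 the 2 groups lie close together.

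Sik1 (ENSMUSG00000024042, mm10 chromosome 17, 31844250 to 31855804, minus strand, protein coding) encodes a kinase that is itself transcribed in response to cAMP and that limits CRTC activity. No annotated exon of another gene overlaps its exons. Its raw counts were 1097 and 1074 in wild type replicates 1 and 2 and 2975 and 2486 in mutant replicates 1 and 2. After scaling these were 13.2 and 14.9 CPM in wild type against 31.3 and 29.7 CPM in mutant liver. Both mutant libraries were thus above both wild type libraries, and each pair lay close together. The group means were 14.0 ± 1.16 and 30.5 ± 1.08 CPM, a ratio of 2.17. The log2 fold change was 1.12 (SE 0.11, 95% confidence interval 0.89 to 1.35). It ranged from 1.04 without wild type replicate 1 to 1.20 without wild type replicate 2.

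Sik3 (chromosome 9, 46012820 to 46224194, plus strand) encodes the largest of the 3 kinases. It was at 57.0 and 58.4 CPM in wild type against 52.5 and 52.7 CPM in mutant liver. Here the mutant libraries were both slightly lower, and the groups did not overlap. The log2 fold change was −0.13 (SE 0.09, 95% confidence interval −0.32 to 0.06). Sik2 (chromosome 9, 50892801 to 51009073, minus strand), a kinase studied for its control of CRTC2 in liver, was at 9.92 and 8.64 CPM in wild type. In mutant liver it was at 7.53 and 9.80 CPM, so the groups overlapped. Its log2 fold change was −0.10 (95% confidence interval −0.44 to 0.23). The opposite-strand gene Ppp2r1b shares 14.98% of the exon length of Sik2, and because the library kit does not mark strand, reads there cannot be assigned by strand.

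Levels per length show the change in the makeup of the kinase family. In TPM (counts divided by the exon length of the gene and rescaled to the same total in each library), Sik1 was at 5.70 and 6.03 in wild type and at 12.9 and 12.3 in mutant liver. Sik3 was at 13.5 and 13.1 TPM in wild type and at 11.9 and 12.02 TPM in mutant liver. By TPM, Sik3 was therefore the most abundant of the 3 kinases in both wild type libraries, and Sik1 in both mutant libraries. The gap was small in mutant replicate 2 (12.3 against 12.02). The order rests on the exon lengths used, 5133 bases for Sik1 and 9318 bases for Sik3. In CPM, which is not divided by length, Sik3 was above Sik1 in all 4 libraries. The share of Sik1 in the summed TPM of the 3 kinases was 26.5% and 28.8% in wild type and 48.6% and 46.4% in mutant liver. Sik3 held 62.8% and 62.2% in wild type and 45.1% and 45.4% in mutant liver, and Sik2 between 6.31% and 10.7% in all 4 libraries. The summed level of the family was 21.2 ± 0.384 TPM in wild type and 26.5 ± 0.0190 TPM in mutant liver. These shares rest on the same counts as the difference in Sik1 and add no independent evidence of it.

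**Figure D2:**
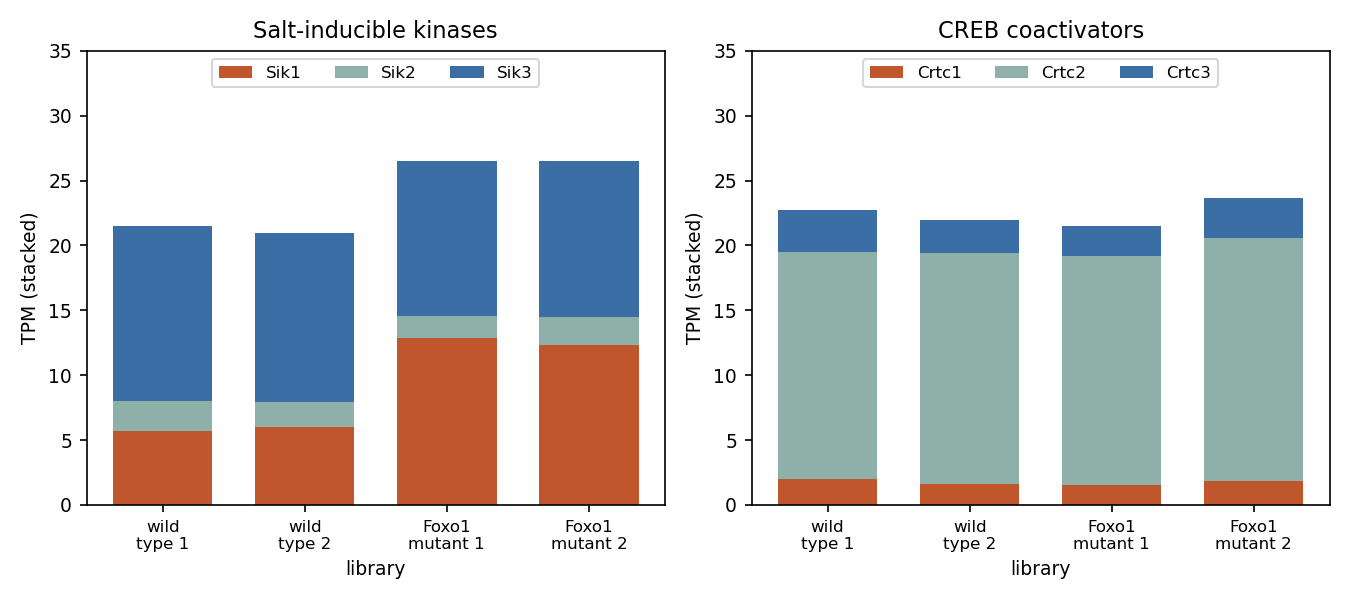
Stacked TPM of the 3 salt-inducible kinases (left) and the 3 CRTC coactivators (right) in each library, with axes from 0. The Sik1 segment grows from 5.70 and 6.03 TPM to 12.9 and 12.3 TPM, while the coactivator stacks lie between 21.5 and 23.6 TPM in all 4 libraries.

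The CRTC coactivators, which the kinases phosphorylate, were at similar levels in both groups. Crtc2 (chromosome 3, 90254163 to 90264125, plus strand), the coactivator best known for the fasting response of liver, was at 32.3 and 34.96 CPM in wild type against 34.2 and 36.1 CPM in mutant liver. Its groups overlapped, and the log2 fold change was 0.06 (SE 0.09, 95% confidence interval −0.14 to 0.27). Crtc3 (chromosome 7, 80586627 to 80688877, minus strand), a coactivator also known from adipose tissue, was at 14.7 and 12.3 CPM in wild type against 10.7 and 14.2 CPM in mutant liver. Crtc1 (chromosome 8, 70382355 to 70439579, minus strand), known mainly from the brain, was at 10.2 and 8.55 CPM in wild type against 7.93 and 9.68 CPM in mutant liver, and for both genes the groups overlapped. The log2 fold changes were −0.12 (95% confidence interval −0.45 to 0.22) for Crtc3 and −0.10 (−0.42 to 0.23) for Crtc1. Per length, Crtc2 held 76.6% to 82.3% of the summed CRTC level in the 4 libraries, Crtc3 10.7% to 14.5% and Crtc1 6.99% to 8.89%. Counts measure transcripts only, so the phosphorylation and location of CRTC proteins, through which the kinases act, are not seen in these data.

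The transcription factor genes of the axis had overlapping groups. Creb1 (chromosome 1, 64532645 to 64604548, plus strand), which encodes the CREB protein that protein kinase A phosphorylates, was at 15.8 and 14.1 CPM in wild type against 14.2 and 16.1 CPM in mutant liver. The log2 fold change was 0.02 (SE 0.12, 95% confidence interval −0.24 to 0.27). Crem (chromosome 18, 3266048 to 3337748, minus strand) encodes activators and, from an internal cAMP-induced promoter, the short repressor ICER. It was at 16.8 and 15.6 CPM in wild type against 16.7 and 16.8 CPM in mutant liver, with a log2 fold change of 0.04 (SE 0.11, 95% confidence interval −0.19 to 0.28). Counts per gene do not separate ICER from the other Crem transcripts. Exons of the opposite-strand gene Gm6225 overlap 8.01% of the exon length of Crem.

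Gcgr (chromosome 11, 120530699 to 120538986, plus strand), the glucagon receptor gene at the head of the axis, was the most abundant of the 10. It was at 184 and 179 CPM in wild type against 163 and 168 CPM in mutant liver. Both mutant libraries were below both wild type libraries. The difference was small, with a log2 fold change of −0.13 (SE 0.09, 95% confidence interval −0.34 to 0.07).

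Nr4a1 (chromosome 15, 101254269 to 101274795, plus strand) encodes an orphan nuclear receptor that glucagon and cAMP induce in liver as an immediate early gene. Its raw counts were 43 and 53 in wild type and 103 and 162 in mutant liver. These corresponded to 0.518 and 0.733 CPM in wild type against 1.08 and 1.94 CPM in mutant liver. Both mutant libraries were higher, and they differed from each other more than the Sik1 pair did. The log2 fold change was 1.27 with an SE of 0.37 and a 95% confidence interval of 0.47 to 2.07, wider than that of Sik1. It dropped to 0.79 when mutant replicate 2 was left out, and leaving out mutant replicate 1 gave 1.63. In the main fit Nr4a1 did not pass the threshold (adjusted p = 0.337 in edgeR).

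CREB binds the cAMP response element TGACGTCA and its shorter forms, and the sequence upstream of Nr4a1 is shown because it carries such letters densely. Upstream sequences from RefSeq (GRCm38.p6, the build of mm10) matched 7 of the 10 members, and those of Sik1, Crtc2 and Crem did not match. The 250 bases before the annotated start were searched on both strands for TGACGTCA, for TGACGCA and for the shorter core TGACG, which is contained in both longer forms. The Nr4a1 window (chr15:101266596-101266845, plus strand) lies in an intron of a longer Nr4a1 transcript and directly before the first exon of the shorter one. In the first line below, capitals mark its 4 matches to TGACGCA, all on the minus strand and thus read as TGCGTCA. The second line shows the window of its paralog Nr4a2 (chr2:57124004-57124253, minus strand), with capitals on its 4 core sites. The last line shows the 129 bases before the start of Sik3 (chr9:46012691-46012819, plus strand), the stretch free of exons of the neighbouring gene, with 2 core sites in capitals.
Nr4a1: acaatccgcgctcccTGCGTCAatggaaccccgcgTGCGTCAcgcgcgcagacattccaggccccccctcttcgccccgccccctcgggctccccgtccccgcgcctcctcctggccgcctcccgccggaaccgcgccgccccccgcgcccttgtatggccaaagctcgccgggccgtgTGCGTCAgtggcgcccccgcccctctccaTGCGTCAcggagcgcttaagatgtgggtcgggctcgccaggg
Nr4a2: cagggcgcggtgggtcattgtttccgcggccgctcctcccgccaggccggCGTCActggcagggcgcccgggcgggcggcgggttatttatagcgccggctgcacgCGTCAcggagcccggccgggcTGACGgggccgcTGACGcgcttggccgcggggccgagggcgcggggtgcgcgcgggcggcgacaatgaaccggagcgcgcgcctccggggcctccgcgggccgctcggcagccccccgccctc
Sik3: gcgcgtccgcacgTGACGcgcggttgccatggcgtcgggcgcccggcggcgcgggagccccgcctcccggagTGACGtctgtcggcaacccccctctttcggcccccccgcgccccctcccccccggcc

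Of 32851 upstream windows of that length, 1.75% held TGACGCA at least once, and 1 window, that of Nr4a1, held it 3 times or more. The core site occurred at least once in 17.8% of windows, at least 3 times in 0.688% and at least 4 times in 0.137%. Sik3 held 3 core sites in its full window, and Nr4a1 held 4. The windows of Sik2, Crtc1, Crtc3, Creb1 and Gcgr held none of the 3 forms, which says only that these letters are not in these windows. In these libraries Nr4a1 was at 0.518 to 1.94 CPM and Nr4a2 was at 0.0415 to 0.287 CPM. The other paralog Nr4a3, whose window also held 4 core sites, had 2 to 7 counts per library and was not tested. These matches are a description of the sequence and not evidence of binding.

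**Figure D3:**
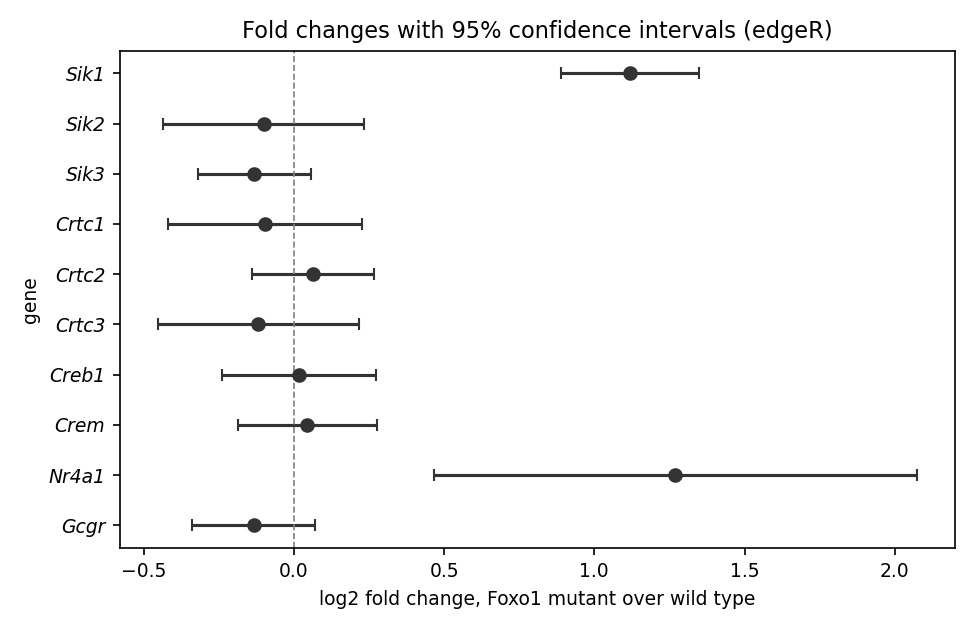
Log2 fold changes (mutant over wild type) of the 10 genes with 95% confidence intervals from edgeR, where the dashed line marks no difference. The intervals of Sik1 (0.89 to 1.35) and Nr4a1 (0.47 to 2.07) lie above 0, and those of the other 8 genes include it. The intervals are not adjusted for the number of genes tested. The genes were chosen with these values known, so the intervals are a description.

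For the other 8 genes the largest absolute log2 fold change was 0.13, and their 95% intervals lay between −0.45 and 0.28. In 5 of the 10 genes (Sik2, Crtc1, Crtc3, Creb1 and Crem) the sign changed when 1 library was left out. In the other 5 it kept its direction under the 12 alternative fits. The TPM order in wild type was Gcgr (149), Crtc2 (17.6), Sik3 (13.3), Crem (5.92), Sik1 (5.87), Crtc3 (2.95), Creb1 (2.34), Sik2 (2.09), Crtc1 (1.81) and Nr4a1 (0.381). Neighbours whose ranges over the libraries overlapped were Crem with Sik1, Creb1 with Sik2, and Sik2 with Crtc1. In mutant liver Sik1 stood at 12.6 TPM, between Crtc2 (18.2) and Sik3 (11.98), and its range met neither of theirs. This order rests on the exon lengths used. Below Crem (6.02), the ranges of Crtc3, Creb1, Sik2 and Crtc1 each overlapped that of the next. Nr4a1 was lowest in both groups, at 0.912 TPM in mutant liver.

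Other genes of the axis were read from 8 lists with 123 genes, of which 109 were tested. In edgeR 0 of the 109 passed the adjusted threshold, beside 0.341% of all genes tested. DESeq2 and limma-voom also called 0, beside 0.764% and 0.0478% of all genes tested. At an unadjusted p below 0.05 there were 11 of 109, beside 6.19% of all genes tested. Their median log2 fold change was 0.04, with 69 positive and 40 negative. The medians of the G protein, protein kinase A and CREB family lists changed sign when 1 library was left out. The smallest adjusted p in edgeR was 0.253, for Adcy7, an adenylyl cyclase gene named after its values were seen. Adcy7 was at 2.82 and 2.70 CPM in wild type against 3.88 and 5.87 CPM in the mutant.

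Among receptors that raise cAMP, 7 of 13 were tested, 5 of them higher and 2 lower in the mutant means, and the median log2 fold change was 0.35. That median was 0.18 with mutant replicate 2 left out and 0.74 with wild type replicate 1 left out. Vipr1, a receptor for vasoactive intestinal peptide, was at 32.0 ± 0.113 and 31.0 ± 2.19 CPM in wild type and mutant liver. Adrb3, a beta adrenergic receptor whose exons overlap an opposite-strand gene, was at 9.31 ± 2.51 and 11.9 ± 1.88 CPM, and the adenosine receptor Adora2a at 0.692 ± 0.352 and 0.880 ± 0.159 CPM. The other 4 tested receptors were at 0.169 to 1.12 CPM, and all 7 lay far under Gcgr. G protein and adenylyl cyclase genes had a median of 0.05 (log2) over 11 tested. The inhibitory G protein genes Gnai3 (76.6 ± 0.445 and 79.3 ± 2.48 CPM) and Gnai2 (69.2 ± 0.665 and 67.8 ± 1.47 CPM) and the cyclase gene Adcy9 (20.6 ± 0.468 and 21.3 ± 2.58 CPM) were nearly level. Gnas, which encodes the stimulatory G protein, was counted at 1.05 ± 0.212 and 1.12 ± 0.0390 CPM. Its exons overlap 2 opposite-strand genes over 2457 of 11186 exon bases, and how overlaps were counted is not stated, so its level is uncertain. Whether the overlap accounts for the low count was not tested.

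Protein kinase A genes and cAMP effectors had a median of 0.02 on the log2 scale over 17 tested. The catalytic subunit Prkaca was at 46.3 ± 3.52 and 46.4 ± 2.1 CPM, the regulatory subunit Prkar1a at 111 ± 5.16 and 113 ± 5.20 CPM, and the mitochondrial anchor Akap1 at 95.5 ± 0.192 and 96.3 ± 3.97 CPM. The phosphodiesterases, which degrade cAMP, had a median of 0.09 over 11 tested. Pde4b, a cAMP-specific enzyme that cAMP signalling itself induces, was at 25.4 and 32.9 CPM in wild type against 40.0 and 37.1 CPM in mutant liver (0.40 on the log2 scale with SE 0.12; adjusted p = 0.398 in edgeR). Pde3b, the insulin-activated phosphodiesterase, was at 94.4 ± 0.292 and 100.4 ± 6.5 CPM, and Pde8a at 42.2 ± 2.57 and 44.6 ± 2.55 CPM. Thus edgeR, DESeq2 and limma-voom each called 0 of the 28 genes in these 2 lists, beside 0.341%, 0.764% and 0.0478% of all genes tested. An unadjusted p below 0.05 was found for 2 of the 28, beside 6.19% of all genes, a share near that background.

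CREB family and acetyltransferase genes had a median of −0.03 (log2) over 11 tested. The tools edgeR, DESeq2 and limma-voom each called 0 of them, beside 0.341%, 0.764% and 0.0478% of all genes tested. An unadjusted p below 0.05 was found for 0 of the 11, beside 6.19% of all genes. Creb3l3, a liver-enriched factor of the endoplasmic reticulum that is activated by fasting, was at 201 ± 27.0 and 196 ± 6.01 CPM. Creb3 (20.4 ± 1.19 and 20.0 ± 0.981 CPM) and Atf1, the close relative of CREB (23.3 ± 1.22 and 22.5 ± 1.51 CPM), were level as well. Among LKB1 and related kinases, which include the activator of the salt-inducible kinases, the median was 0.04 over 14 tested. Stk11, which encodes LKB1, was at 56.3 ± 0.480 and 53.0 ± 1.23 CPM, and its scaffold genes Cab39 and Cab39l at 58.9 ± 0.410 and 70.0 ± 7.11 CPM in wild type against 61.8 ± 2.83 and 71.6 ± 1.64 CPM in mutant liver. Exons of Creb3, Stk11 and Cab39l overlap genes on the opposite strand. Substrates of the kinases and regulators of CRTC had a median of 0.02 over 17 tested. Genes of the 14-3-3 proteins, which bind phosphorylated CRTC, were among the most abundant there: Ywhae was at 151 ± 0.871 and 151 ± 6.49 CPM, Ywhab at 91.8 ± 0.524 and 88.7 ± 4.53 CPM, and Ywhaz at 72.9 ± 2.15 and 77.2 ± 2.14 CPM.

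Among genes that cAMP induces in liver or other cells, 21 were tested. Fitted values were above 0 in 14 and below 0 in 7, and the median was 0.23. The tools edgeR, DESeq2 and limma-voom each called 0, beside 0.341%, 0.764% and 0.0478% of all genes tested. The unadjusted p was below 0.05 for 5 genes higher and 1 gene lower in mutant liver, beside 6.19% of all genes tested. Leaving out mutant replicate 2 brought the median to 0.12, and leaving out wild type replicate 2 brought it to 0.38. Of the gluconeogenic genes Pck1 and G6pc, neither was higher in both mutant libraries. Pck1, encoding phosphoenolpyruvate carboxykinase, was at 3251 and 2524 CPM in wild type against 2613 and 2893 CPM in mutant liver, so the groups overlapped. G6pc, encoding glucose-6-phosphatase, was at 558 and 577 CPM in wild type against 380 and 518 CPM in mutant liver, lower in both (−0.34 on the log2 scale with SE 0.14; adjusted p = 0.741 in edgeR). Tat, encoding tyrosine aminotransferase, was at 2390 ± 254 and 2530 ± 504 CPM. The 5 higher genes at an unadjusted p below 0.05, named after their values were seen, were Dusp1, Per2, Ppp1r3c, Junb and Rgs2. Dusp1, a phosphatase of MAP kinases with TGACGTCA in its upstream window, was at 15.4 and 17.7 CPM in wild type against 21.8 and 22.1 CPM in mutant liver (0.41 on the log2 scale with SE 0.11; adjusted p = 0.254 in edgeR). Of 19 genes in this list with an upstream window, 13 held the core site, beside 17.8% of all windows, and 2 the full element TGACGTCA, beside 1.55% of all windows. Per1 had 2 windows, and a gene counted if any of its windows held the site. The list was chosen for induction by cAMP, so these shares are a description and no test.

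**Figure D4:**
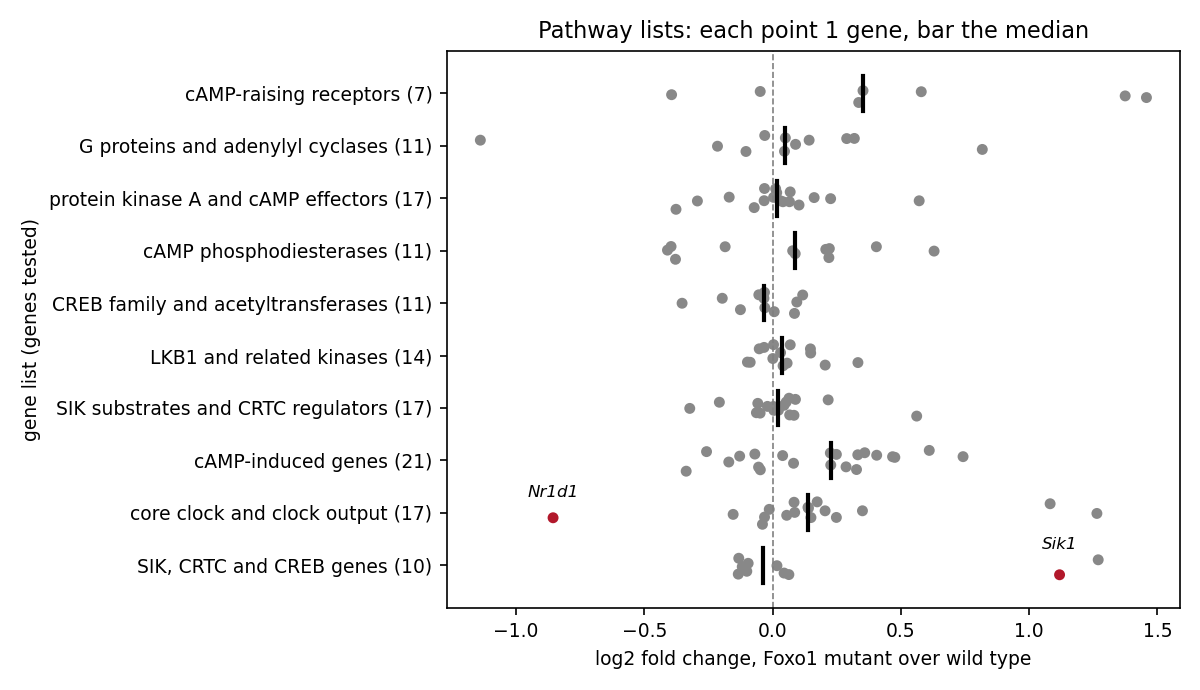
Log2 fold changes (mutant over wild type) of each tested gene in 9 lists and in the 10 genes of the axis, with a black bar for each median and red for an edgeR adjusted p below 0.05. Sik1 (1.12) and Nr1d1 (−0.86) are the red points, and the medians of the lists lie between −0.03 and 0.35.

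Sik1 is also a feedback gene of the clock's light response in the brain, and the time of collection is not known here, so clock genes were read beside it. Of 17 tested, 1 passed the threshold in edgeR and DESeq2 and 0 in limma-voom, and it was lower, beside 0.0614% of all genes that passed in that direction in edgeR. Nr1d1, which encodes the clock repressor REV-ERB alpha, was at 56.9 and 44.9 CPM in wild type and fell to 27.6 and 28.7 CPM in the mutant (−0.86 on the log2 scale with SE 0.11; adjusted p = 0.0109 in edgeR). Exons of Thra on the opposite strand overlap it. It was no longer called when wild type replicate 1 was left out (adjusted p = 0.141 in edgeR), nor with either mutant library left out (0.183 for replicate 1, 0.213 for replicate 2). Nfil3, a circadian repressor, was at 47.9 ± 3.10 and 46.9 ± 5.28 CPM. The list's median was 0.14, with 12 positive and 5 negative. At an unadjusted p below 0.05 there were 2 higher and 1 lower of 17, beside 6.19% of all genes tested. These were Ciart (1.08 on the log2 scale) and Hlf (0.25), named after their values were seen, and Nr1d1. The clock genes Per1 and Per2 were read among the cAMP-induced genes instead. Whether clock phase has a part in the Sik1 difference was not tested.

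Markers of macrophages moved in the same direction as Sik1 in the same libraries. All 16 markers of Kupffer cells and other macrophages had a positive log2 fold change, and 7 rose past the threshold (edgeR adjusted p below 0.05), beside 0.28% of all genes tested. DESeq2 called 12 of them and limma-voom 1, beside 0.764% and 0.0478% of all genes tested. The edgeR calls among these markers were not kept with 1 library left out, in fits that called far fewer of all genes. In those fits the median of the 16 markers, 0.64 with all libraries, stayed between 0.58 and 0.76. Their summed level was 428 and 472 CPM in wild type against 670 and 737 CPM in mutant liver, a ratio of means of 1.56, and 0 of the 16 had a count of 0 in any library. The log2 fold change of Sik1 exceeded that of 15 of the 16 markers, the exception being Marco, a scavenger receptor of macrophages (5.35 and 3.18 CPM in wild type against 15.3 and 6.36 CPM in the mutant, adjusted p = 0.973 in edgeR). Hepatocyte markers summed to 115370 and 129180 CPM in wild type against 114430 and 109620 CPM in mutant liver, and the median over their 14 genes was −0.04 on the log2 scale. In bulk tissue a change in the number of cells of a type and a change in RNA per cell cannot be told apart. The part of macrophages in the Sik1 and Nr4a1 differences was not tested.

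Markers of other cell types were counted as well, and an unadjusted p below 0.05 is read beside 6.19% of all genes tested. Calls are read beside 0.341% (edgeR), 0.764% (DESeq2) and 0.0478% (limma-voom) of all genes tested. Sinusoidal endothelial, stellate cell and cholangiocyte markers had median log2 fold changes of −0.04, −0.11 and −0.04 over 10, 10 and 6 tested genes. Of these edgeR, DESeq2 and limma-voom each called 0, and 0, 2 and 0 of them had an unadjusted p below 0.05. Erythroid markers summed to 239 and 266 CPM in wild type against 296 and 335 CPM in mutant liver, and their median was 0.45 (log2). Of 5 tested, 3 had an unadjusted p below 0.05, and 1 of these, the globin gene Hbb-bt, was called higher in edgeR, beside 0.28% of all genes. Neutrophil markers summed to 2.86 and 3.54 CPM in wild type against 4.28 and 3.92 CPM in mutant liver, so both mutant libraries were higher. Their median was 0.75 over 4 tested genes of 8 listed, with 3 positive and 1 negative. Of the 4, 2 had an unadjusted p below 0.05 and 0 were called by the 3 tools. The most abundant, Csf3r, was at 2.12 and 2.56 CPM in wild type against 2.53 and 2.94 CPM in mutant liver. The others were not tested. Ngp had 9 and 18 counts in wild type against 10 and 3 in mutant liver, and Retnlg 4 and 11 against 6 and 1. Camp had 0 and 0 against 4 and 0, and Ly6g 0 and 0 against 1 and 0. Lymphocyte markers summed to 4.29 and 7.56 CPM in wild type against 7.82 and 5.93 CPM in mutant liver, so these sums overlapped. Cd4, the most abundant of them, was at 2.18 and 4.18 CPM in wild type against 3.75 and 2.36 CPM in mutant liver. The median over the 11 tested lymphocyte genes was 0.30, with 8 positive and 3 negative. In 4 of the 11, all higher in mutant liver, the groups did not overlap, beside 34.1% of all genes tested. Of the 11, 1 had an unadjusted p below 0.05 and 0 were called by the 3 tools. The part of these cells in the Sik1 difference was not tested.

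**Figure D5:**
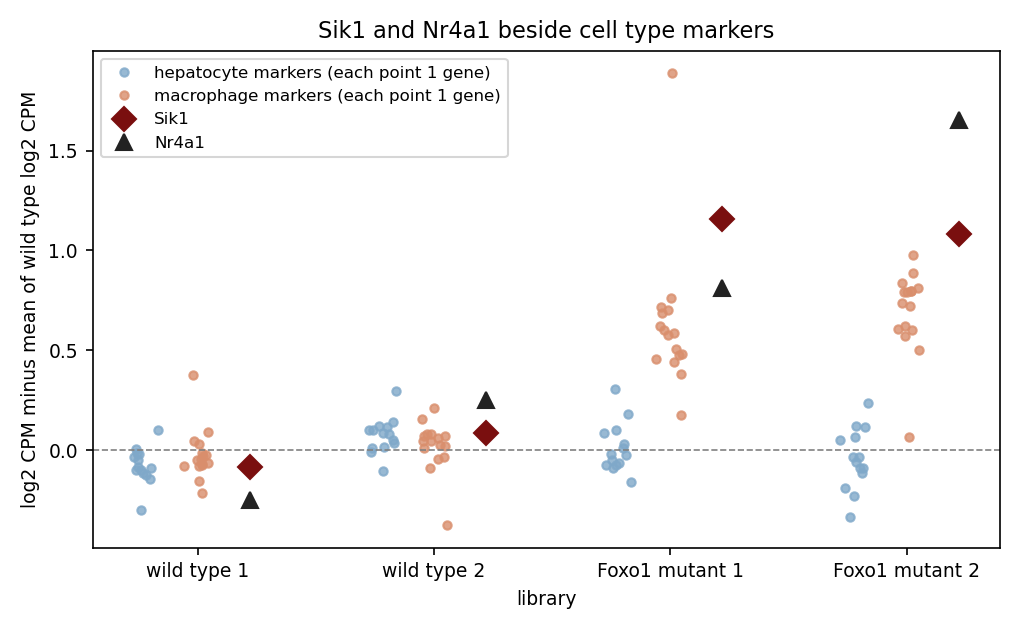
Log2 CPM minus the mean of the wild type log2 values, by library, for Sik1 (diamonds), Nr4a1 (triangles), 16 macrophage markers and 14 hepatocyte markers (points, 1 per gene). In both mutant libraries Sik1 lies above all macrophage markers except Marco in mutant replicate 1, and hepatocyte markers scatter around 0.

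The 5 genes whose pattern over the 4 libraries lay nearest to that of Sik1 were found from the root mean square difference of log2 CPM deviations, with each gene set against its own mean. They were Fam198b (0.03), Cfap69 (0.06), Tlr9 (0.07), Lair1 (0.07) and Ly9 (0.11), the value being the distance in log2 units. A prior count of 2 was added before the logarithm. This shrinks differences in genes with few counts, so their distances and places in the list depend on it. The log2 fold changes fitted by edgeR were 1.31, 1.30, 1.20, 1.24 and 0.95 in that order, against 1.12 for Sik1. Lair1 is an inhibitory receptor of leukocytes, Tlr9 a sensor of unmethylated DNA in immune cells, Ly9 a leukocyte receptor of the SLAM family and Cfap69 a protein of cilia and flagella. Lair1 was at 1.76 and 1.80 CPM in wild type against 4.37 and 4.03 CPM in mutant liver. Fam198b, Cfap69 and Tlr9 were below 0.52 CPM in every library, where counting error alone is large. With 4 libraries in 2 groups, nearness of pattern mostly means a like difference between the groups, and the list is a description.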

How the data were processed

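The authors deposited raw counts of reads for each Ensembl gene in a separate file for every library, made with TopHat2 2.1.1 and HTSeq 0.6.0 on mm10, per the submitters' processing notes. Per the labels' protocols, polyA RNA (about 100 ng) went into TruSeq RNA libraries, read in pairs of 150 bp. How HTSeq treated strand and overlaps, and its annotation, are not stated in the labels. Each file held 37315 rows and no summary rows, and 35449 identifiers (GENCODE M21) had a symbol. Of 235 listed genes 234 were found.

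From the counts, edgeR 4.0.16 (R 4.3.3) was run with filterByExpr (minimum count 10), TMM factors (0.983 to 1.02) and glmQLFit and glmQLFTest with robust estimation, with group as the only term. All 14657 genes kept were fitted and adjusted together at 0.05. The SE comes from the log2 fold change and its F statistic. The median SE was 0.15. The floor of 3 counts covers counting error only. TPM used the union of exons per gene, which understates genes with long rare exons. The fit was tested on simulated data. No libraries were merged, since each pair differed by more than counting noise (a chi-square of 57.5 to 100.4 per gene on average). It was 70.2 between the wild type libraries and 57.5 between the mutant libraries. Against the mutant libraries it was 58.2 and 60.4 for wild type replicate 1, and 99.8 and 100.4 for wild type replicate 2.

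The members and lists were chosen with earlier results of these data known. Genes were named by rule: Foxo1, the 10 members, up to 4 called genes and the 3 of highest wild type TPM per list, and the 5 nearest to Sik1; any other gene named was picked after its values were seen. A gene that this rule names in the clock list is not reported here. Alternatives were DESeq2 1.42.0, limma-voom (limma 3.58.1), scaling by RLE or by upper quartile, leaving genes unfiltered or keeping those at 1 CPM in 2 libraries, no robust estimation, a replicate block, each library left out, and an adjusted p of 0.1.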

Additional observations from a re-analysis of the deposited data

How the results depend on the processing

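Sik1 kept its direction under all 12 alternative fits and stayed past the threshold in 11 of them. Its log2 fold change was 1.04 to 1.20 with 1 library left out, and without mutant replicate 1 it was 1.08 and not called (edgeR adjusted p = 0.056); the cause was not tested. The number of all genes past the threshold was 50, against 258 with no filter, 24 with a filter of 1 CPM in 2 libraries, 112 with DESeq2, 7 with limma-voom, 8 without robust estimation, and 3 to 17 with 1 library left out. Members past the threshold numbered 1, against 2 with no filter, which added Nr4a1, and 0 to 1 with 1 library left out. Of the genes in the 9 pathway and clock lists 1 passed, against 5 with no filter, 0 with limma-voom, 0 without robust estimation and 0 to 1 with 1 library left out. RLE and upper-quartile scaling changed none of these counts. The replicate number as a block gave 111 genes past the threshold and a Sik1 log2 fold change of 1.12. The labels do not say that the numbers pair the samples, and deviations of same-numbered libraries had a correlation of −0.0072 across genes. That value covers all tested genes together, and single genes can depart from it. Lpin1, Rapgef4 and Gnai1, picked after their values were seen and described below, each shifted in the same direction by replicate number in both groups. With 2 libraries a group, the median SE of 0.15 limits what could be seen for genes such as Sik2 or Crtc3, and 43 to 162 counts limit Nr4a1.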

Other observations

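A few genes of the axis varied more between libraries of 1 group than between the groups; they were chosen after their values were seen. Lpin1, a phosphatidate phosphatase and coregulator induced by fasting, was at 79.7 and 168.6 CPM in wild type replicates 1 and 2 and at 54.7 and 153 CPM in mutant replicates 1 and 2. Rapgef4, which encodes the cAMP effector EPAC2, was at 116 and 57.7 CPM in wild type against 104 and 66.0 CPM in mutant liver. The inhibitory G protein gene Gnai1 was at 2.98 and 1.05 CPM in wild type against 1.33 and 0.490 CPM in mutant liver. Their log2 fold changes had SEs of 0.86, 0.56 and 0.77, against 0.11 for Sik1.

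The prostaglandin receptor gene Ptger4, also chosen after its values were seen, was low but higher in both mutant libraries. It was at 0.169 and 0.208 CPM in wild type against 0.546 and 0.430 CPM in the mutant, with an adjusted p of 0.668 in edgeR.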
